A study of Mus musculus with 30 samples.

Results

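Lumbar dorsal root ganglia of mice given cyclophosphamide were compared with those of mice given doxorubicin on day 8, gene by gene. The comparison was chosen by its labels and holds 6 of the 30 RNA-seq libraries of the series, 3 per drug. All mice were male, wild-type C57BL/6J animals, perfused with RNAlater, and the ganglia were L3 to L5 of both sides. The cyclophosphamide group received that single drug and was taken on day 8, the doxorubicin group received that single drug and was taken on day 8, and the saline group, used for orientation, has 3 libraries of day 8. The series also covers vincristine, dexamethasone and CVAD, a regimen that combines several drugs, as well as day 2. Dose, schedule, animal age and time of day of collection are not given in the sources used here, and the labels do not say whether a library is 1 animal or a pool, so the p-values measure the spread between these samples.

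The cell bodies of sensory neurons lie in these ganglia, wrapped by satellite glia and accompanied by Schwann cells, vessels, fibroblasts and resident immune cells. Cyclophosphamide is a prodrug that the liver activates and whose product alkylates and crosslinks DNA, while doxorubicin is an anthracycline that intercalates into DNA, traps topoisomerase II and takes part in redox cycling. The ganglia lie outside the blood-nerve barrier, and sensory neuropathy and loss of dividing blood cells are known side effects of several chemotherapies.

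The deposited table gives TPM, transcripts per 1e+06, a level per gene scaled for length and library. Between 25342 and 27585 genes were above 0 in each of the 9 day 8 libraries used, and 61.0 to 71.2% of TPM came from protein-coding genes. The share of misc_RNA genes was 20.4 to 23.5% in cyclophosphamide, 15.5 to 27.8% in doxorubicin and 18.8 to 20.5% in saline, and doxorubicin replicate 1 was lowest and replicate 3 highest. Pairs of libraries, on the log2(TPM + 1) scale, correlated at r = 0.965 to 0.966 within cyclophosphamide, 0.964 to 0.969 within doxorubicin and 0.960 to 0.970 between the drugs. Libraries of one drug were about as alike as libraries of different drugs. Genes that define ganglion cells were present as the tissue label says. Rbfox3, a neuronal splicing factor, was at 184, 165 and 183 TPM in cyclophosphamide, against 195, 196 and 154 TPM in doxorubicin. The 37 genes of chromosome M had a TPM of 0 throughout, so transcripts of the mitochondrial genome are not compared here.

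No gene differed between the drugs after adjustment. Of 25434 genes tested with limma on log2(TPM + 1), 0 had an adjusted p under 0.05 (0% of genes tested), and the smallest adjusted p was 0.133. At an unadjusted p under 0.05 there were 1044 genes, which is 4.10% of those tested, 268 higher in cyclophosphamide (1.05%) and 776 lower (3.05%). The libraries of the drugs did not overlap for 1884 genes (7.41%), 494 of them higher in cyclophosphamide (1.94%) and 1390 lower (5.47%). Over all genes the median difference was −0.028, with 10587 genes higher and 14565 lower. Under the other settings of the analysis 0 to 2 genes were called. Beside the drug comparison, 2 genes passed in cyclophosphamide against saline, the predicted models Gm13340 and Gm21104 (0.00786% of genes tested), and 0 passed in doxorubicin against saline, where 852 genes had an unadjusted p under 0.05 (3.35%). Both predicted models were lower in cyclophosphamide. These comparisons share libraries with each other.

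The direction of the unadjusted calls depended on scaling and on single libraries. Of the 1044 genes 74.3% were lower in cyclophosphamide, and with median-ratio scaling of the libraries this share was 59.3%. Without doxorubicin replicate 1 it was 48.4%, and without doxorubicin replicate 3 it was 85.2%. These are the doxorubicin libraries with the lowest and highest misc_RNA share, and the part of that share in the split was not tested. The median 95% interval of a difference reached 0.39 to either side on the log2 scale. It reached 0.73 for genes under 5 TPM, 0.40 at 5 to 20 TPM, 0.22 at 20 to 100 TPM and 0.21 above 100 TPM. Smaller differences were not resolved with 3 libraries per drug. Larger ones did not pass adjustment either, with 0 called of 514 genes that differed by more than 1 in either direction.

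**Figure D1:**
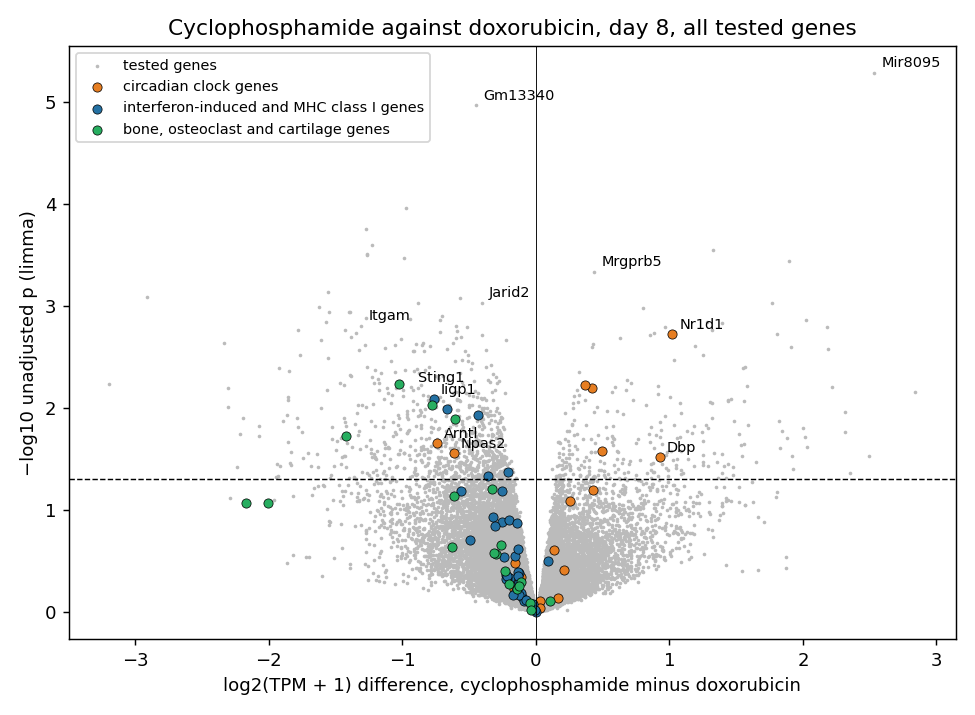
Each dot is 1 of the 25434 tested genes, with the log2(TPM + 1) difference of cyclophosphamide minus doxorubicin on the x axis and −log10 of the unadjusted limma p on the y axis. The dashed line marks the unadjusted threshold. Mir8095 and Gm13340 had the smallest p-values, clock genes lie on both sides, and the interferon and bone genes lie mostly left of 0.

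Of the 1044 genes, the saline mean lay between the means of the drugs for 773 (74.0%), and it was nearer to doxorubicin for 652 (62.5%). For the genes lower in cyclophosphamide it was nearer to doxorubicin for 506 of 776 (65.2%), and for the genes higher in cyclophosphamide for 146 of 268 (54.5%). These genes were selected for a difference between the drugs, so the position of saline is a description. Among protein-coding genes 513 of 15314 had an unadjusted p under 0.05 (3.35%), with 103 higher and 410 lower, and among miRNA genes 78 of 859 had one (9.08%), with 36 higher and 42 lower.

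The gene of smallest p was Mir8095 (ENSMUSG00000099071, chromosome 16), a miRNA gene. It was at 3.43, 7.43 and 4.19 TPM in the cyclophosphamide libraries, was listed at 0 in all 3 doxorubicin libraries, and was at 1.97, 0 and 1.87 TPM in saline (limma, unadjusted p = 5.23e-06, adjusted p = 0.133). The cyclophosphamide libraries were all above the doxorubicin ones, and 1 saline library was also listed at 0. The gene was called with a pseudocount of 0.1 (adjusted p = 0.00657) and with library quality weights (adjusted p = 0.0186), and the limma adjusted p was 0.0889 to 0.909 under the other alternatives. Its hairpin lies at chr16:22532056-22532184 on the minus strand of GRCm38.p6, inside the diacylglycerol kinase gene Dgkg, outside the exons that GENCODE M21 annotates for it. A library of total RNA can count a fragment of the host transcript at this place, so the value is not a measure of the mature miRNA. The mature sequence from RefSeq is shown with its seed, bases 2 to 8, in capitals. No other mature miRNA in the RefSeq table shared this seed.
mmu-miR-8095: aAAGGAUUcugcugucuguccc

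The second smallest p belonged to Gm13340 (ENSMUSG00000083563, chromosome 2), an unprocessed pseudogene model that was singled out after its value was seen. It was at 68.4, 71.5 and 70.4 TPM in cyclophosphamide, against 89.9, 100.5 and 98.4 TPM in doxorubicin and 116, 97.6 and 99.1 TPM in saline. The cyclophosphamide libraries were below all others. The difference between the drugs was −0.45 ± 0.082 (adjusted p = 0.138), and it was called with library quality weights (adjusted p = 0.0186), with a limma adjusted p of 0.0889 to 0.961 under the other alternatives. Reads of such a model can be shared with near-identical copies in the genome.

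By the naming rule, the 12 genes of smallest p in each direction were taken among annotated genes that reached a mean of 5 TPM and whose groups did not overlap. Those higher in cyclophosphamide had differences of 0.32 to 2.53 and unadjusted p-values of 5.23e-06 to 0.00634. Next to Mir8095 stood Mrgprb5 (ENSMUSG00000070551, chromosome 7), a Mas-related G protein-coupled receptor of a family used by small sensory neurons. It was at 64.4, 56.5 and 55.7 TPM in cyclophosphamide, against 47.4, 44.6 and 37.9 TPM in doxorubicin and 50.6, 53.3 and 42.7 TPM in saline. Saline lay within or above the doxorubicin range and below cyclophosphamide. The difference between the drugs was 0.44 ± 0.11 (limma, unadjusted p = 0.000464, adjusted p = 0.947). Olfr1033, annotated as an olfactory receptor, was at 22.4, 31.4 and 32.1 TPM in cyclophosphamide, against 15.5, 11.9 and 14.8 TPM in doxorubicin, a difference of 0.97 ± 0.27. Mtrr, which keeps methionine synthase active, differed by 0.43 ± 0.13. Cep57, a centrosomal protein, differed by 0.42 ± 0.12, and Wnt2b, a secreted Wnt ligand, by 0.32 ± 0.10. The group also held the miRNA gene Mir6982 (1.58 ± 0.53), the processed pseudogene Tpt1-ps6 (0.59 ± 0.20) and 1 of the 2 tested entries with the symbol Snhg4, listed at 10.8, 2.73 and 2.93 TPM in cyclophosphamide, against 0.08600, 0 and 0.703 TPM in doxorubicin. The other Snhg4 entry had an unadjusted p of 0.993. The remaining 3, Nr1d1, Tef and Nr1d2, are genes of the circadian clock.

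The 12 genes lower in cyclophosphamide, also chosen without overlap between the drugs, had differences of −1.57 to −0.23. Their limma unadjusted p-values were 0.000927 to 0.00262, all with an adjusted p of 0.947. Jarid2 (ENSMUSG00000038518, chromosome 13), a subunit of some forms of Polycomb repressive complex 2, was at 27.7, 24.4 and 28.6 TPM in cyclophosphamide, against 33.7, 42.1 and 32.8 TPM in doxorubicin and 36.4, 30.9 and 39.7 TPM in saline. All 3 cyclophosphamide libraries lay below the 6 others, with a difference of −0.41 ± 0.11. Itgam (ENSMUSG00000030786, chromosome 7), the CD11b integrin of myeloid cells, was at 2.105, 3.35 and 2.54 TPM in cyclophosphamide, against 10.9, 6.61 and 7.05 TPM in doxorubicin and 5.87, 3.41 and 8.61 TPM in saline. Its difference was −1.31 ± 0.37, and every cyclophosphamide library was below every library of the other groups. Gem, a small GTPase that inhibits voltage-gated calcium channels, was at 2.57, 3.47 and 2.04 TPM in cyclophosphamide, against 5.96, 4.33 and 4.86 TPM in doxorubicin (difference −0.72 ± 0.20). Sstr2, a somatostatin receptor, was at 6.25, 7.19 and 5.83 TPM in cyclophosphamide, against 12.9, 12.8 and 8.38 TPM in doxorubicin (difference −0.72 ± 0.20). For Gem and Sstr2 too, the cyclophosphamide libraries were below all libraries of doxorubicin and saline. Dock4, an activator of Rac, was at 49.8, 51.2 and 51.5 TPM in cyclophosphamide, against 62.1, 61.5 and 55.3 TPM in doxorubicin, a small difference of −0.23 ± 0.066 with tight libraries. Asl, argininosuccinate lyase of the urea cycle, differed by −0.40 ± 0.12, and Snrnp35, a protein of the minor spliceosome, by −0.60 ± 0.17. Smr2 (−0.62 ± 0.18) and Rwdd2a (−0.67 ± 0.20) completed the coding genes. The others were the processed pseudogenes Fam220-ps (−0.59 ± 0.17) and Rpl31-ps13 (−0.52 ± 0.15), which can share reads with their parent genes, and Zfp652os, a long noncoding RNA at the Zfp652 locus listed at 2.503, 1.604 and 0 TPM in cyclophosphamide, against 7.05, 4.87 and 4.04 TPM in doxorubicin. Whether counting used the strand is not given in the sources used here, so reads of Zfp652os and a gene on the opposite strand cannot be told apart.

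Genes of the circadian clock had the largest share of unadjusted calls of the 48 lists examined. The clock makes transcript levels cycle over the day. It is a loop in which Arntl (BMAL1) with Clock or Npas2 drives E-box genes, whose products Per and Cry repress that drive and whose products Nr1d1 and Nr1d2 (REV-ERB) repress Arntl and Npas2. Dbp and Tef are output factors that bind D-boxes. Of 18 clock genes tested, 7 had an unadjusted p under 0.05 (38.9%, against 4.10% of all genes). Of these, 5 were higher and 2 lower in cyclophosphamide, and 0 passed adjustment. The list's median difference was 0.15, against −0.028 over all genes.

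Nr1d1 (ENSMUSG00000020889, chromosome 11) was at 76.1, 88.4 and 48.4 TPM in cyclophosphamide, against 36.4, 36.4 and 28.1 TPM in doxorubicin (difference 1.02 ± 0.29, unadjusted p = 0.0019, adjusted p = 0.947). Nr1d2 was at 56.98, 68.9 and 55.04 TPM in cyclophosphamide, against 48.8, 46.5 and 39.1 TPM in doxorubicin (difference 0.42 ± 0.14). Both repressors, like Tef, were named by the rule that required the drug groups not to overlap. Tef was at 117, 134 and 129.6 TPM in cyclophosphamide, against 108, 100.3 and 86.7 TPM in doxorubicin (difference 0.37 ± 0.12), and Per3 was at 31.7, 43.05 and 28.8 TPM in cyclophosphamide, against 25.5, 22.7 and 23.4 TPM in doxorubicin (difference 0.49 ± 0.21). Dbp was at 47.7, 70.6 and 27.3 TPM in cyclophosphamide, against 27.5, 23.1 and 20.01 TPM in doxorubicin (difference 0.93 ± 0.40). For Dbp cyclophosphamide replicate 3 lay just inside the doxorubicin range, while Per3 did not overlap. Per2, with 11.2, 14.1 and 13.4 TPM in cyclophosphamide and 9.71, 9.897 and 8.38 TPM in doxorubicin, did not overlap either and had an unadjusted p of 0.0633.

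The activators stood the other way. Arntl (ENSMUSG00000055116, chromosome 7) was at 9.798, 13.2 and 20.7 TPM in cyclophosphamide, against 25.5, 22.2 and 24.3 TPM in doxorubicin (difference −0.74 ± 0.30, unadjusted p = 0.0221). Npas2 was at 5.45, 7.15 and 9.701 TPM in cyclophosphamide, against 11.1, 13.1 and 10.9 TPM in doxorubicin (difference −0.62 ± 0.26, unadjusted p = 0.0277). The drug groups did not overlap for either. Per1, which glucocorticoids also induce, was at 23.7, 30.7 and 37.01 TPM in cyclophosphamide, against 35.2, 35.4 and 30.98 TPM in doxorubicin, and overlapped.

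The range of the saline libraries overlapped the ranges of both drugs for Nr1d1, Dbp and Arntl. Nr1d1 was at 48.3, 23.8 and 80.5 TPM in saline replicates 1, 2 and 3, Dbp at 22.98, 15.1 and 64.7 TPM and Arntl at 26.1, 23.02 and 10.01 TPM. Saline replicate 3 had the high Nr1d1 and Dbp and low Arntl seen in cyclophosphamide, and saline replicate 2 was below all doxorubicin libraries for Nr1d1 and Dbp. The list's median was 0.063 without cyclophosphamide replicate 2 and 0.072 without doxorubicin replicate 3.

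**Figure D2:**
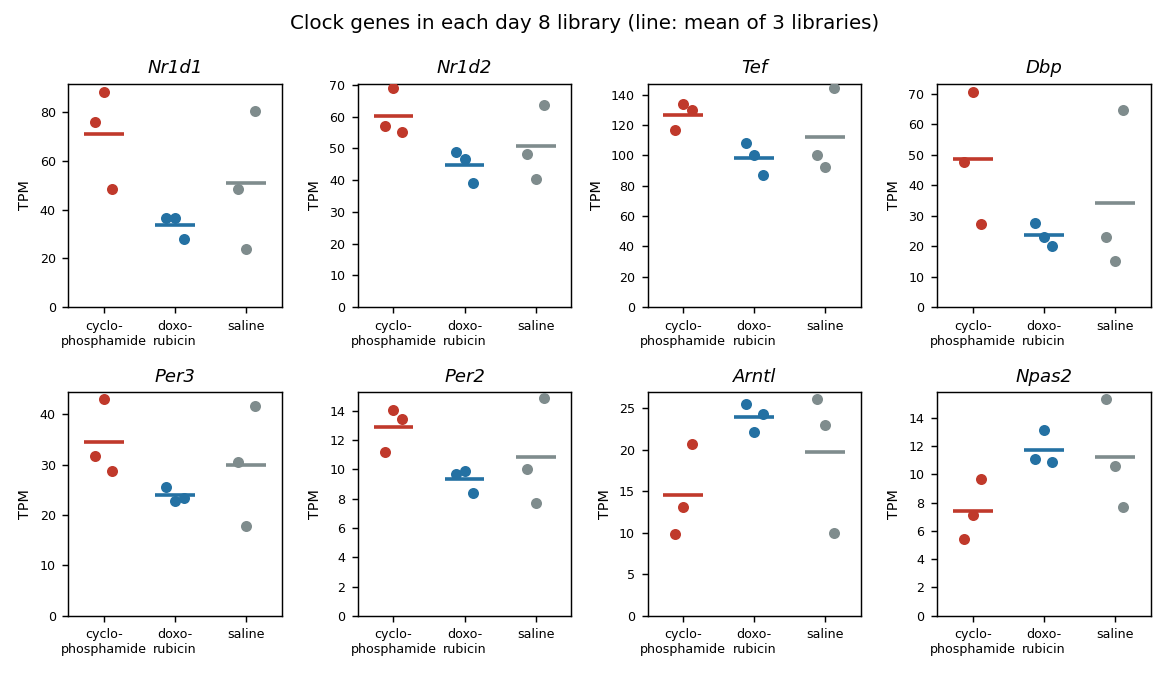
TPM of 8 clock genes in each day 8 library, with cyclophosphamide left, doxorubicin in the middle and saline right, and a line at the mean of 3 libraries. The 3 doxorubicin libraries lie close together, with Nr1d1 at 28.1 to 36.4 TPM, while saline runs from 23.8 to 80.5 TPM.

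The promoters of Tef and Per3 were picked for display because they hold letters that match an E-box or a D-box. Each line is the 250 bases before the RefSeq start site, on the strand of the gene, from GRCm38.p6. In Tef (chr15:81802423-81802672, plus strand) capitals mark the E-box CACGTG, which starts 127 bases upstream. In Per3 (chr4:151044666-151044915, minus strand) capitals mark a pair of D-boxes TTATGTAA, which start 205 and 158 bases upstream.
Tef: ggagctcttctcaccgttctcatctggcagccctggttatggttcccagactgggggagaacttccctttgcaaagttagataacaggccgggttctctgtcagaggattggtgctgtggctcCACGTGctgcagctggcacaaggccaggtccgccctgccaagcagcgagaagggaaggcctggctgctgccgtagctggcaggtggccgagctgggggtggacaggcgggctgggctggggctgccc
Per3: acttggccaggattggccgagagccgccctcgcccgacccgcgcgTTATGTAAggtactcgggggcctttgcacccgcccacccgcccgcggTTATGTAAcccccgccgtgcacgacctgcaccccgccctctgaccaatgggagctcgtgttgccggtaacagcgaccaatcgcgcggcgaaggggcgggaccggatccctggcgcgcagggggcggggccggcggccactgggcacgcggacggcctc
Both motifs were searched on both strands. The E-box was in 6.02% of 32851 RefSeq promoters of this length and in those of 5 of the 15 tested clock genes with an entry. The D-box was in 0.819% of promoters and in 1 of the 15, the Per3 gene shown here. A gene was counted when any of its promoters matched, so the gene counts and the promoter shares are in unlike units. A match describes letters in the window and not a binding site.

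Genes of the pathways that the drugs are known to engage differed little. Of 28 p53 target genes 9 were higher and 19 lower in cyclophosphamide, with a median of −0.043. Of these 28, 1 had an unadjusted p under 0.05 (3.57%, against 4.10% of all genes). That gene was Bbc3 (PUMA), a killer protein of the mitochondrial death pathway, at 15.8, 16.3 and 17.2 TPM in cyclophosphamide, against 22.7, 23.6 and 20.7 TPM in doxorubicin (difference −0.42 ± 0.17, unadjusted p = 0.0184). Its groups did not overlap, and the same held for Bax, a pore-forming death protein, at 61.1, 58.2 and 61.7 TPM in cyclophosphamide, against 77.7, 64.2 and 65.1 TPM in doxorubicin (unadjusted p = 0.106). Cdkn1a (p21), the cell cycle inhibitor that p53 induces, was at 78.5, 91.2 and 103 TPM in cyclophosphamide, against 103, 87.1 and 91.4 TPM in doxorubicin, and its interval of −0.39 to 0.29 included 0. Mdm2, which marks p53 for degradation, had an interval of −0.22 to 0.19.

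Of 33 genes of double-strand break and crosslink repair 14 were higher and 19 lower, with a median of −0.042. Of 25 genes of direct and excision repair 6 were higher and 19 lower (median −0.067). Pms2, a mismatch repair endonuclease, was at 13.1, 14.9 and 13.3 TPM in cyclophosphamide, against 16.6, 18.98 and 18.4 TPM in doxorubicin, without overlap (difference −0.36 ± 0.16). Alkbh2, which reverses alkylation of DNA bases directly, was at 3.65, 6.54 and 3.92 TPM in cyclophosphamide, against 8.95, 5.33 and 8.25 TPM in doxorubicin (difference −0.58 ± 0.28, unadjusted p = 0.0478), and its groups overlapped.

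None of the 8 topoisomerase genes had an unadjusted p under 0.05. Top2b, the topoisomerase II of nondividing cells and a target of doxorubicin, was at 38.2, 43.2 and 40.02 TPM in cyclophosphamide, against 46.1, 44.3 and 40.8 TPM in doxorubicin (difference −0.11 ± 0.081). Top2a, the form of dividing cells, was at 4.497, 6.78 and 9.46 TPM in cyclophosphamide, against 8.83, 5.88 and 14.2 TPM in doxorubicin and 25.8, 18.5 and 8.61 TPM in saline. Top1 differed by 0.084 ± 0.069. Top2b had a higher TPM than Top2a in each library of both drugs.

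Of 10 drug efflux genes tested, 1 had an unadjusted p under 0.05, as 4.10% of all genes did. Abcc4, an exporter of organic anions, was at 20.3, 24.2 and 23.7 TPM in cyclophosphamide, against 26.8, 30.01 and 24.98 TPM in doxorubicin (difference −0.25 ± 0.12, unadjusted p = 0.0451), without overlap. Over all genes, 5.47% were lower without overlap. Abcb1a and Abcb1b encode P-glycoprotein, which exports doxorubicin. Abcb1a had an interval of −0.28 to 0.33 and Abcb1b one of −0.49 to 0.21, and Abcc1 one of −0.18 to 0.15. Abcg2 was listed at 0 in all 6 libraries of the drugs, which in this table can be a failed estimate and is not read as a lack of expression. Of 31 genes that detoxify aldehydes or conjugate glutathione 16 were higher and 15 lower, with a median of 0.002. Aldh1a1, which oxidises the aldehyde form of activated cyclophosphamide, was at 30.5, 55.9 and 44.7 TPM in cyclophosphamide, against 39.6, 39.7 and 55.96 TPM in doxorubicin, with an interval of −0.73 to 0.60. Cbr1, which reduces doxorubicin to its alcohol, had an interval of −0.16 to 0.34, and Gstp1, a glutathione transferase, one of −0.22 to 0.17. Gss, glutathione synthetase, was at 35.2, 34.4 and 32.9 TPM in cyclophosphamide, against 31.3, 31.4 and 29.2 TPM in doxorubicin, without overlap (difference 0.15 ± 0.074). Akr1c13, an aldo-keto reductase, was listed at 0, 1.09 and 0 TPM in cyclophosphamide, against 1.903, 2.84 and 2.31 TPM in doxorubicin.

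Antioxidant genes leaned towards cyclophosphamide by small amounts. Of 26 tested, 21 were higher and 5 lower, with a median of 0.056, and the median was 0.013 without doxorubicin replicate 3. Srxn1, which repairs oxidised peroxiredoxins, was at 149, 142 and 134 TPM in cyclophosphamide, against 124, 124 and 104 TPM in doxorubicin (difference 0.27 ± 0.10, unadjusted p = 0.0144). The metallothionein Mt2 was at 45.1, 48.7 and 59.96 TPM in cyclophosphamide, against 33.5, 36.02 and 37.8 TPM in doxorubicin, and Mt1 at 79.2, 86.2 and 92.3 TPM in cyclophosphamide, against 73.8, 70.7 and 74.6 TPM in doxorubicin. All 3 genes were higher without overlap between the drugs, as 1.94% of all genes were. Srxn1 was the 1 gene of the list with an unadjusted p under 0.05 (3.85%, against 4.10% of all genes). Among 30 nuclear genes of the respiratory chain 22 were higher and 8 lower (median 0.027, and −0.016 to 0.082 with 1 library left out). Ndufa4 differed by 0.30 ± 0.13 and Cox5b by −0.20 ± 0.11.

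Genes of stress responses were also higher by small amounts in cyclophosphamide. Of 18 heat shock chaperone genes 17 were higher and 1 lower, with a median of 0.099. The mean of the list over its genes was 6.67 to 6.72 in the cyclophosphamide libraries and 6.46 to 6.64 in the doxorubicin libraries on the log2(TPM + 1) scale, without overlap, and 6.59 to 6.71 in saline. The median was 0.030 without doxorubicin replicate 3. Hspa1b, an inducible HSP70, was at 29.2, 34.1 and 23.6 TPM in cyclophosphamide, against 19.9, 23.6 and 19.2 TPM in doxorubicin (difference 0.44 ± 0.18), and Hsph1, its nucleotide exchange factor, differed by 0.17 ± 0.11. Of 24 genes of the endoplasmic reticulum and integrated stress response 17 were higher (median 0.070, and 0.017 to 0.084 with 1 library left out). Their list mean overlapped between the drugs, at 5.68 to 5.72 in the cyclophosphamide libraries and 5.54 to 5.70 in the doxorubicin libraries. Among them 1 had an unadjusted p under 0.05 (4.17%, against 4.10% of all genes). Herpud1, a factor of reticulum-associated degradation, differed by 0.20 ± 0.086. Genes of cholesterol synthesis and uptake stood the other way, with 21 of 22 lower and a median of −0.095, which was 0.006 without doxorubicin replicate 1 and −0.188 without cyclophosphamide replicate 3. Lss, lanosterol synthase, was at 46.2, 52.6 and 66.5 TPM in cyclophosphamide, against 98.4, 72.6 and 58.4 TPM in doxorubicin, and Mvd, of the mevalonate part of the pathway, differed by −0.27 ± 0.13.

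Genes of dividing cells were lower in cyclophosphamide as a list, without any member at an unadjusted p under 0.05. Of 35 tested, 32 were lower and 3 higher, with a median of −0.40, and 13 had cyclophosphamide libraries all below the doxorubicin ones, as 5.47% of all genes did. With 1 library left out the median was −0.458 to −0.281. Ccna2, cyclin A2, was at 5.12, 5.59 and 5.03 TPM in cyclophosphamide, against 9.89, 8.39 and 8.79 TPM in doxorubicin and 14.7, 10.8 and 4.79 TPM in saline. Cdk1, the kinase that starts mitosis, was at 0.6700, 0.933 and 1.51 TPM in cyclophosphamide, against 3.63, 2.74 and 2.55 TPM in doxorubicin, and Mki67, a marker of cycling cells, at 5.78, 6.77 and 7.38 TPM in cyclophosphamide, against 8.86, 7.89 and 12.9 TPM in doxorubicin and 19.1, 15.9 and 6.64 TPM in saline. Cyclophosphamide lay below doxorubicin in all libraries for these 3, and saline ran across a wider range than either drug. Mcm6, a subunit of the replicative helicase, differed by −0.34 ± 0.18 and overlapped. Against saline the list's median was −0.652 in cyclophosphamide and −0.173 in doxorubicin, comparisons that share the saline libraries. Of 35 replication-dependent histone genes 28 were lower in cyclophosphamide than in doxorubicin (median −0.167). The median was −0.053 with library quality weights, −0.081 and −0.070 without cyclophosphamide replicate 1 and 2, and −0.095 without doxorubicin replicate 3. All 35 had a lower mean than saline in each drug, but the list means of saline overlapped those of both drugs. They were 5.38, 5.09 and 4.64 in saline replicates 1, 2 and 3, against 4.40 to 4.74 in cyclophosphamide and 4.51 to 4.80 in doxorubicin. H4c3 was at 37.4, 36.8 and 31.6 TPM in cyclophosphamide, against 39.9, 39.97 and 46.9 TPM in doxorubicin. In bulk ganglia, fewer cells of a type and less RNA per cell cannot be told apart.

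Interferon-induced genes and MHC class I genes were lower in cyclophosphamide by modest amounts. These genes are switched on by STAT and IRF factors and serve antiviral defence and antigen presentation. Of 37 tested, 36 were lower and 1 higher, with a median of −0.175, and 5 had an unadjusted p under 0.05 (13.5%, against 4.10% of all genes), all lower. Of all genes 57.3% were lower. The list mean overlapped between the drugs, at 3.86 to 4.13 in the cyclophosphamide libraries and 4.09 to 4.47 in the doxorubicin libraries. With median-ratio scaling 33 of the 37 were lower, and without doxorubicin replicate 1 the median was −0.054. Against saline the median was −0.342 in cyclophosphamide and −0.172 in doxorubicin.

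Iigp1, an immunity-related GTPase, was at 4.12, 6.97 and 5.57 TPM in cyclophosphamide, against 13.1, 9.09 and 8.24 TPM in doxorubicin and 24.7, 12.4 and 13.02 TPM in saline (difference between the drugs −0.76 ± 0.27, unadjusted p = 0.00818). Gbp3, a guanylate-binding protein, was at 5.805, 11.1 and 10.98 TPM in cyclophosphamide, against 19.1, 13.6 and 12.5 TPM in doxorubicin and 24.2, 16.7 and 14.01 TPM in saline (difference −0.67 ± 0.24). Bst2 (tetherin), which holds back budding viruses, was at 19.7, 23.7 and 21.6 TPM in cyclophosphamide, against 29.8, 29.4 and 29.1 TPM in doxorubicin and 38.9, 30.7 and 26.7 TPM in saline (difference −0.43 ± 0.16). Cyclophosphamide lay below doxorubicin in all libraries of these genes. Tap1, which feeds peptides to MHC class I, was at 12.3, 14.2 and 12.7 TPM in cyclophosphamide, against 17.1, 17.1 and 16.7 TPM in doxorubicin and 29.4, 22.1 and 22.1 TPM in saline, so that the 3 groups did not overlap and followed that order. Ifit2 differed by −0.21 ± 0.10. Sting1, the sensor of cyclic dinucleotides that signals DNA in the cytosol, belongs to the Toll-like receptor and inflammasome list, and was at 8.37, 14.2 and 7.92 TPM in cyclophosphamide, against 16.3, 21.04 and 22.5 TPM in doxorubicin and 26.3, 13.1 and 17.1 TPM in saline (difference −0.94 ± 0.31, unadjusted p = 0.00623). It was the 1 gene of 28 in that list with an unadjusted p under 0.05 (3.57%, against 4.10% of all genes). In that list 19 were lower and the median was −0.103.

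The promoters of Bst2 and Gbp3 were picked for display because they hold letters that match an interferon element, which does not show a binding site. In Bst2 (chr8:71537473-71537722, minus strand of GRCm38.p6) and Gbp3 (chr3:142559794-142560043, plus strand) capitals mark a pair of overlapping matches to GAAA, NN and GAAA in a row, on either strand, which start 130 and 124 bases upstream in Bst2 and 45 and 39 bases upstream in Gbp3.
Bst2: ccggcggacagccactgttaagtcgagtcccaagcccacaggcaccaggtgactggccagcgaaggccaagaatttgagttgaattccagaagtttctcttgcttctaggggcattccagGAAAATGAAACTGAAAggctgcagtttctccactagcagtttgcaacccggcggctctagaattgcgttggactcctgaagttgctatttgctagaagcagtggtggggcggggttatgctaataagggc
Gbp3: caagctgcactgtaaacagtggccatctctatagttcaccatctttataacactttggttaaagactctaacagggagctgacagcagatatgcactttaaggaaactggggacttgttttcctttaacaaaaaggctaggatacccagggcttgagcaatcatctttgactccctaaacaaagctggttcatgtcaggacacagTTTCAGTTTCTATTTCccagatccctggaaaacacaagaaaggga
The motif was in 2.98% of 32851 RefSeq promoters of this length, and in those of 17 of the 28 tested list genes with an entry. Here too a gene was counted when any of its promoters matched, so these values are in unlike units.

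**Figure D3:**
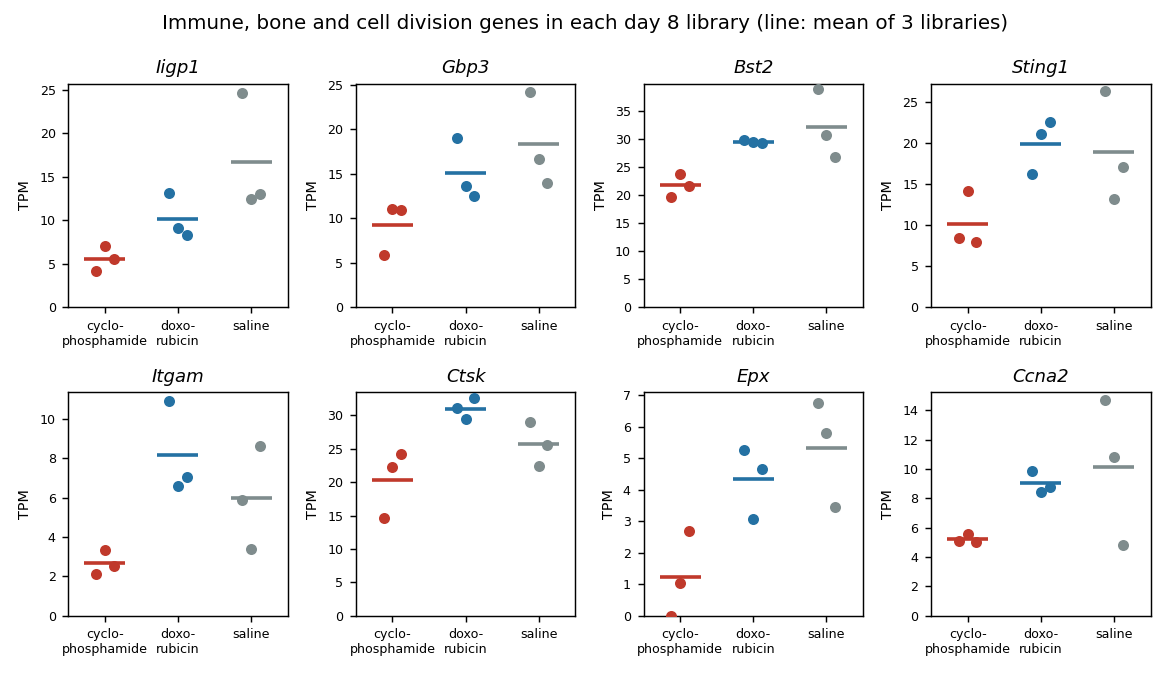
TPM of 8 genes in each day 8 library, with cyclophosphamide left, doxorubicin in the middle and saline right, and a line at the mean of 3 libraries. For each of the 8 genes the 3 cyclophosphamide libraries lie below the 3 doxorubicin libraries, as with Iigp1 at 4.12 to 6.97 TPM against 8.24 to 13.1 TPM.

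Genes of eosinophils and of bone had lower levels in cyclophosphamide, while the mast cell genes named below differed less. Of 12 eosinophil and mast cell genes 9 were lower and 3 higher, with a median of −0.694, and 4 had an unadjusted p under 0.05 (33.3%, against 4.10% of all genes), each of them an eosinophil gene. Epx, eosinophil peroxidase, was listed at 0, 1.03 and 2.69 TPM in cyclophosphamide, against 5.27, 3.06 and 4.65 TPM in doxorubicin and 6.75, 5.79 and 3.46 TPM in saline. Prg2, the major basic protein of eosinophils, was at 3.95, 16.8 and 19.9 TPM in cyclophosphamide, against 33.2, 20.3 and 32.9 TPM in doxorubicin and 46.6, 37.5 and 20.6 TPM in saline. The ribonucleases Ear1, listed at 0, 4.08 and 4.68 TPM in cyclophosphamide and 7.99, 5.56 and 9.91 TPM in doxorubicin, and Ear2, listed at 0, 3.87 and 8.52 TPM in cyclophosphamide and 8.39, 4.54 and 9.77 TPM in doxorubicin, followed. Cyclophosphamide replicate 1 was the lowest library for all 4, and without it the list's median was −0.402. Ear1 and Ear2 are close paralogs between which reads can be split. Some mast cell genes of the list were picked after their values were seen. Kit, the stem cell factor receptor, differed by 0.15 and Cpa3, carboxypeptidase A3, by 0.14. Fcer1a, of the IgE receptor, differed by −0.15 and the chymase Cma1 by −0.048. The other mast cell genes of the list are not given here.

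Of 20 bone, osteoclast and cartilage genes 19 were lower and 1 higher, with a median of −0.307, which was −0.194 without doxorubicin replicate 3, and 4 had an unadjusted p under 0.05, as 4.10% of all genes did. Ctsk, the collagenase of osteoclasts that fibroblasts also express, was at 14.6, 22.3 and 24.3 TPM in cyclophosphamide, against 31.03, 29.4 and 32.5 TPM in doxorubicin and 29.1, 22.4 and 25.6 TPM in saline (difference −0.61 ± 0.23). Mmp13, collagenase 3, was at 1.65, 2.48 and 2.54 TPM in cyclophosphamide, against 6.18, 7.97 and 8.68 TPM in doxorubicin and 5.501, 9.996 and 2.48 TPM in saline (difference −1.42 ± 0.56). Col2a1, the collagen of cartilage, differed by −0.78 ± 0.28. Atp6v0d2, a proton pump subunit of osteoclasts, was listed at 0.434, 0 and 0 TPM in cyclophosphamide, against 0.667, 1.47 and 1.91 TPM in doxorubicin. None of the 4 overlapped between the drugs. The mean of the list was 2.32 to 2.56 in the cyclophosphamide libraries, 2.85 to 3.14 in the doxorubicin libraries and 2.81 to 3.06 in the saline libraries.

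Neutrophil genes overlapped between the drugs, and the medians of both lists were below saline in each drug. Of 13 late granule genes 12 were lower in cyclophosphamide than in doxorubicin (median −0.346, and −0.106 without doxorubicin replicate 3), and all 13 had a lower mean than saline in each drug. The list mean of doxorubicin replicate 3, 4.52, was nevertheless above those of saline replicates 1 and 2, 4.41 and 4.48. Ltf, lactoferrin, was at 20.5, 36.3 and 29.3 TPM in cyclophosphamide, against 45.1, 31.1 and 53.97 TPM in doxorubicin and 44.6, 55.1 and 79.9 TPM in saline. Camp, cathelicidin, was at 12.6, 24.3 and 19.5 TPM in cyclophosphamide, against 20.98, 14.1 and 36.9 TPM in doxorubicin and 28.1, 40.3 and 45.6 TPM in saline. The drugs overlapped for both, and doxorubicin overlapped saline. Of 9 azurophil granule genes 7 were lower (median −0.092), with Mpo, myeloperoxidase, at 9.14, 14.9 and 6.82 TPM in cyclophosphamide, against 10.9, 7.92 and 15.97 TPM in doxorubicin and 15.2, 27.8 and 39.2 TPM in saline, and Elane, neutrophil elastase, at 7.38, 11.6 and 9.69 TPM in cyclophosphamide, against 9.74, 4.56 and 9.92 TPM in doxorubicin and 13.2, 19.2 and 27.1 TPM in saline. Of 15 B cell and immunoglobulin genes 10 were higher (median 0.304) and of 10 T and NK cell genes 4 were higher (median −0.055), each with overlapping list means. The B cell median was −0.066 without cyclophosphamide replicate 3, 0.1 without doxorubicin replicate 1 or 2 and 0.653 without doxorubicin replicate 3, and the T and NK cell median ran from −0.236 to 0.048 with 1 library left out. Trac, the constant part of the T cell receptor alpha chain, was listed at 1.24, 2.95 and 0 TPM in cyclophosphamide, against 3.999, 4.86 and 2.94 TPM in doxorubicin. Of 24 macrophage genes 19 were lower with a median of −0.055, which was 0.035 with library quality weights and 0.053 without cyclophosphamide replicate 1, and Adgre1 (F4/80) had an interval of −0.53 to 0.41.

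Genes of sensory neurons were at similar levels with both drugs. Of 28 nociceptor genes 19 were higher and 9 lower in cyclophosphamide, with a median of 0.094 and extremes of −0.22 and 0.14. Of 23 genes of large-diameter neurons 19 were higher (median 0.078), of 36 channel genes 27 were higher (median 0.045), and of 35 pain-linked receptor genes 19 were higher (median 0.011). None of these members had an unadjusted p under 0.05. Without doxorubicin replicate 3 the medians of these 4 lists were −0.025, −0.010, −0.052 and −0.069.

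Calca, the precursor of CGRP, was at 280.3, 241 and 300.3 TPM in cyclophosphamide, against 273, 262 and 229 TPM in doxorubicin, with an interval of −0.14 to 0.35. Scn9a, the sodium channel Nav1.7, was at 142, 123 and 149.6 TPM in cyclophosphamide, against 137, 134 and 109 TPM in doxorubicin (interval −0.075 to 0.34). Trpv1, the capsaicin receptor, had an interval of −0.28 to 0.25, and Piezo2, the channel of light touch, one of −0.20 to 0.21. Adcyap1, the neuropeptide PACAP, which axotomy induces, was at 57.1, 60.8 and 66.8 TPM in cyclophosphamide, against 74.9, 67.7 and 67.6 TPM in doxorubicin, without overlap (unadjusted p = 0.17). Atf3, the transcription factor that marks injured sensory neurons, was at 12.7, 15.3 and 19.4 TPM in cyclophosphamide, against 10.9, 10.7 and 22.6 TPM in doxorubicin and 15.98, 9.53 and 20.7 TPM in saline, with overlap throughout.

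Glial lists were near the median of all genes. The list median was −0.014 for 19 myelinating Schwann cell genes, −0.069 for 18 genes of repair and nonmyelinating Schwann cells and −0.045 for 22 satellite glia genes. Sox2, a transcription factor of glia, was at 21.96, 21.8 and 22.6 TPM in cyclophosphamide, against 29.6, 29.3 and 23.3 TPM in doxorubicin and 22.9, 20.8 and 22.8 TPM in saline (difference −0.29 ± 0.10, unadjusted p = 0.0057). The groups of the drugs did not overlap, and saline lay with cyclophosphamide. Emid1 was at 18.3, 44.1 and 53.3 TPM in cyclophosphamide, against 72.2, 48.7 and 54.7 TPM in doxorubicin, with cyclophosphamide replicate 1 the lowest. Fabp7, a lipid carrier of satellite glia, had an interval of −0.38 to 0.25.

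Endothelial and connective tissue genes were lower in cyclophosphamide in most members, as 57.3% of all genes were. Among 20 pericyte and vascular smooth muscle genes 12 were lower and 8 higher, with a median of −0.052. Of 24 endothelial genes 17 were lower (median −0.101, and −0.001 without cyclophosphamide replicate 1), with Tek, the angiopoietin receptor, at 7.87, 11.6 and 8.56 TPM in cyclophosphamide, against 14.9, 10.5 and 12.7 TPM in doxorubicin (difference −0.41 ± 0.15), and Kdr, the main VEGF receptor, at −0.27 ± 0.13. Of 30 collagen and fibroblast genes 24 were lower (median −0.162), and 3 had an unadjusted p under 0.05. The drugs did not overlap for 3 higher members, Apod (0.24 ± 0.13), Pi16 (0.36 ± 0.23) and Igfbp6 (0.11 ± 0.091), and for 3 lower ones, Postn, Thbs2 and Dpt (−0.59 ± 0.33). Over all genes, 1.94% were higher without overlap and 5.47% were lower without overlap. Postn, periostin, was at 28.5, 37.3 and 36.8 TPM in cyclophosphamide, against 49.7, 46.01 and 42.9 TPM in doxorubicin (difference −0.43 ± 0.20), and Thbs2, thrombospondin 2, at 15.9, 22.2 and 23.2 TPM in cyclophosphamide, against 29.1, 26.2 and 29.1 TPM in doxorubicin (difference −0.46 ± 0.22). Col14a1 was at 25.5, 46.1 and 55.6 TPM in cyclophosphamide, against 72.6, 54.8 and 63.1 TPM in doxorubicin. Cyclophosphamide replicate 1 was the lowest of the 6 libraries for all 3, and without it the list's median was 0.002. It was −0.278 without cyclophosphamide replicate 3.

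Genes of tissues next to the ganglion differed widely between libraries of one group. All 22 fast skeletal muscle genes were lower in cyclophosphamide, with a median of −1.03, but the list mean ran from 1.28 to 4.99 in cyclophosphamide and from 2.58 to 5.67 in doxorubicin, and 0 members had an unadjusted p under 0.05. Acta1, skeletal muscle actin, was at 2.01, 126 and 46.3 TPM in cyclophosphamide, against 29.4, 68.4 and 154 TPM in doxorubicin and 2.54, 142 and 71.3 TPM in saline, and Myh1, a fast myosin, was listed at 0, 7.26 and 1.28 TPM in cyclophosphamide, against 1.94, 4.36 and 39.9 TPM in doxorubicin. The median was 0.063 without cyclophosphamide replicate 1, −0.144 without doxorubicin replicate 3 and −2.05 without cyclophosphamide replicate 2. Of 16 spinal cord genes 14 were lower (median −0.328), and without doxorubicin replicate 3 the median was 0.180. Gad1, which makes GABA, was at 0.764, 1.098 and 0.808 TPM in cyclophosphamide, against 0.673, 1.04 and 8.65 TPM in doxorubicin, and Slc32a1, the vesicular GABA transporter, was listed at 0, 1.32 and 0 TPM in cyclophosphamide, against 0.346, 0 and 8.704 TPM in doxorubicin. Doxorubicin replicate 3 was the highest library for both lists, and cyclophosphamide replicate 1 the lowest of the drugs. The part of these lists in the other results was not tested.

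**Figure D4:**
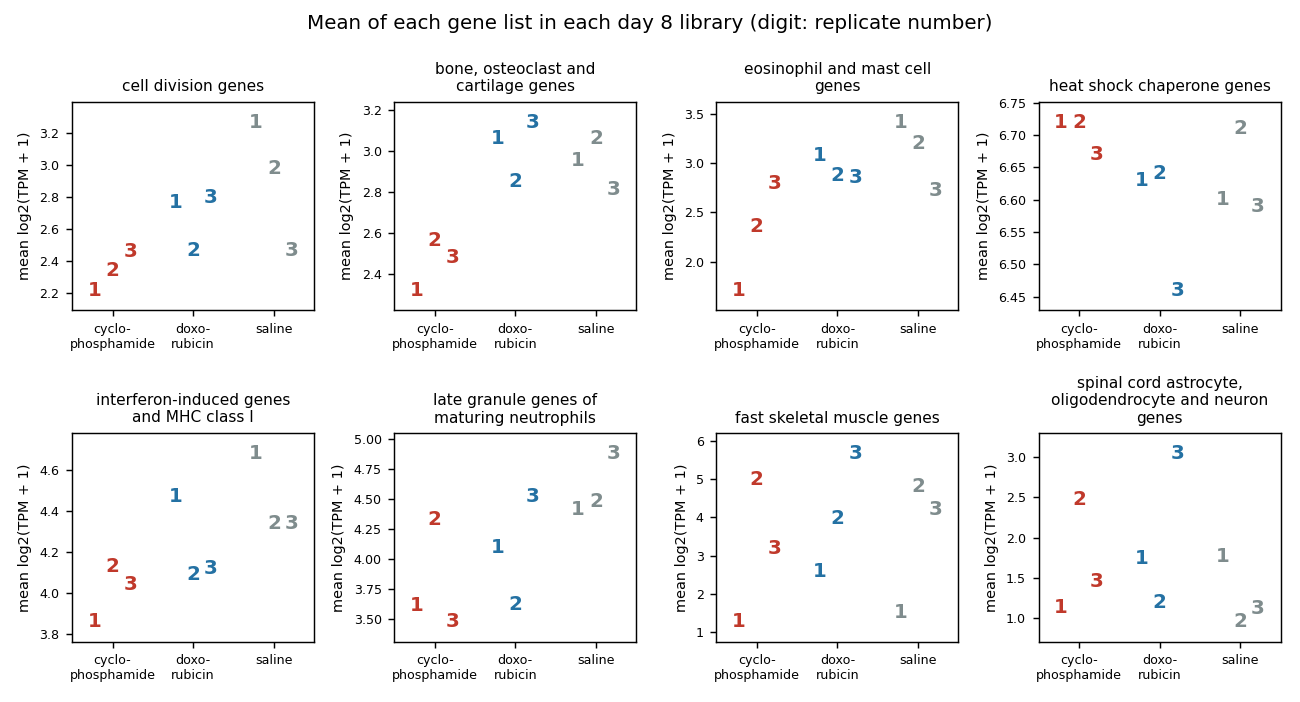
Mean log2(TPM + 1) over the genes of 8 lists in each day 8 library, with cyclophosphamide left, doxorubicin in the middle and saline right, and each digit giving the replicate number. The drugs do not overlap in the upper row, and muscle genes run from 1.28 to 4.99 in cyclophosphamide and 2.58 to 5.67 in doxorubicin.

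Over 48 lists of cell types and responses, 1031 members were tested, 0 were called, and 48 had an unadjusted p under 0.05 (4.66%, against 4.10% of all genes). The library means of 4 of the 48 lists did not overlap between the drugs, and neither did the libraries for 7.41% of all single genes. Cell division, bone and the joint list of eosinophils and mast cells were lower in cyclophosphamide. In the last, each member with an unadjusted p under 0.05 was an eosinophil gene. Heat shock chaperones were higher, with the lowest cyclophosphamide library at 6.67 and the highest doxorubicin library at 6.64.

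**Figure D5:**
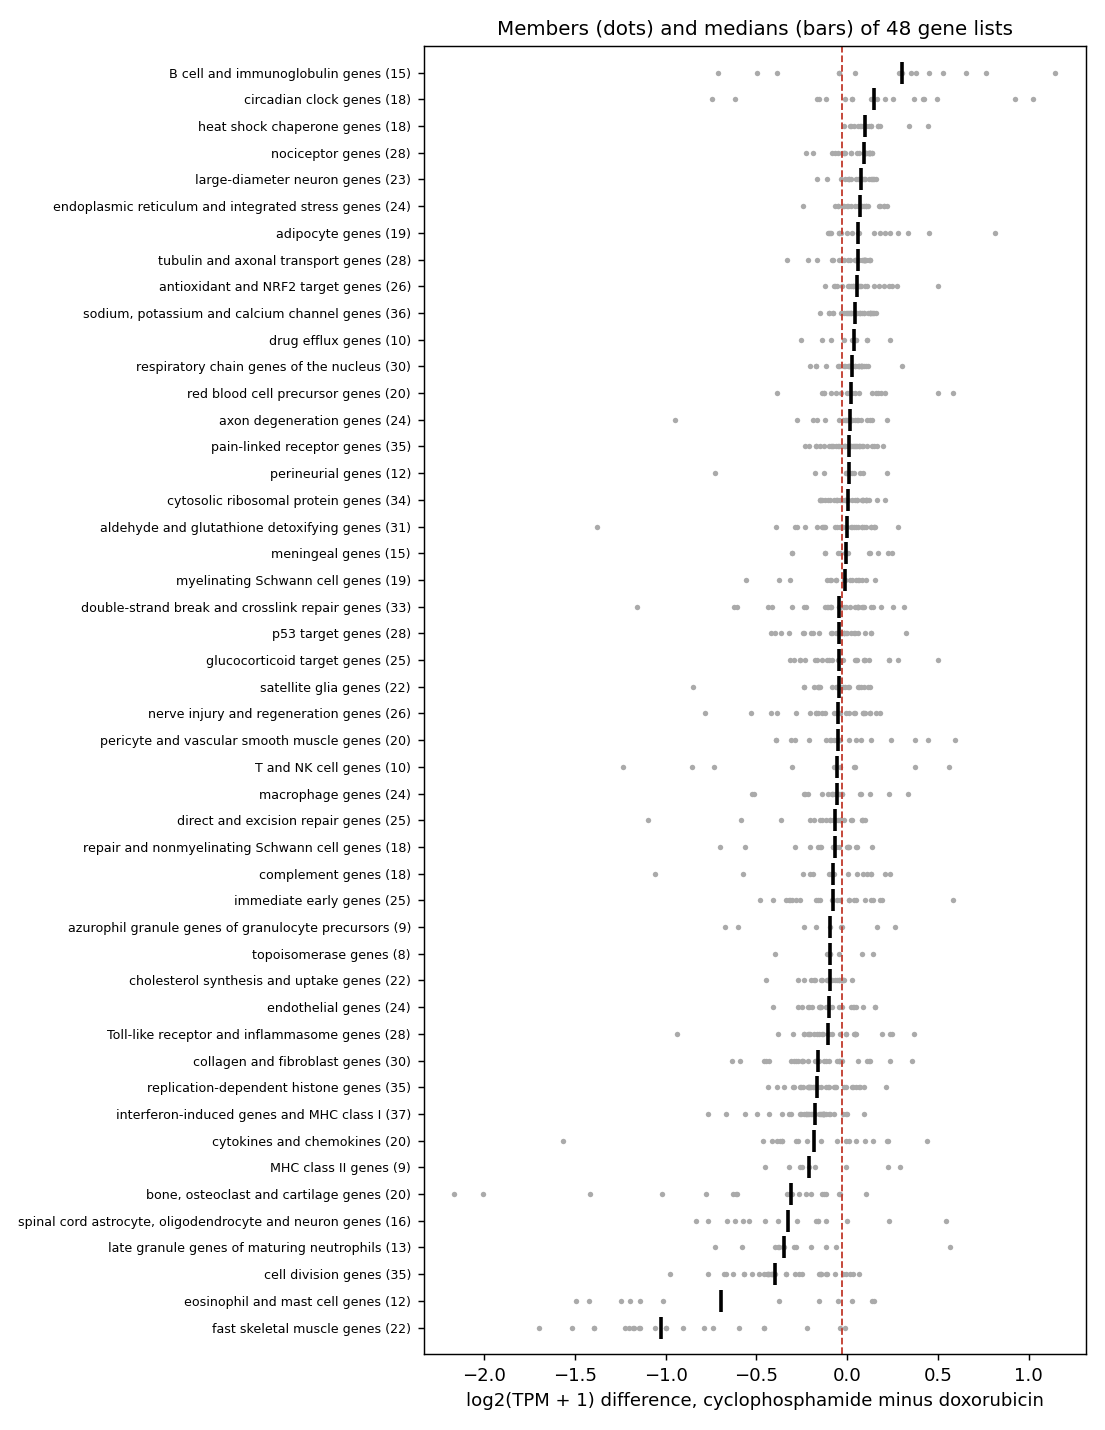
Each row is a gene list with its number of tested genes, grey dots are members and black bars medians of the log2(TPM + 1) difference of cyclophosphamide minus doxorubicin. The dashed line is the median of all genes, −0.028; list medians run from −1.03 for muscle to 0.304 for B cell genes, a value that was −0.066 without cyclophosphamide replicate 3.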

How the data were processed

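RNA of lumbar dorsal root ganglia was depleted of ribosomal RNA before stranded library preparation, per the labels' protocols. Per the submitters' processing notes, the tools were STAR 2.7.10b, StringTie 2.2.1 and FastQC 0.12.1, and GRCm39 and mm10 are both named as builds, with no role stated. The authors deposited TPM per gene. The reads behind each value are not given in the sources used here, so depth is unknown, and differences of genes with few TPM are understated on the log2(TPM + 1) scale.

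Groups were taken from the labels, and replicates were numbered in accession order. Of the 56686 genes in the table, 25434 reached 1 TPM in 3 or more of the 30 libraries and were tested. With limma 3.58.1 (R 4.3.3), log2(TPM + 1) of the 30 libraries was modelled with 1 mean for each group, a variance trend and 20 residual degrees of freedom. The p-values are 2-sided, and adjustment followed Benjamini and Hochberg across all tested genes. An exact permutation test of 3 against 3 libraries cannot give a p under 0.1 and was not used.

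Since fewer than 5 genes were called, the rule named the 12 genes of smallest p in each direction that had a mean of 5 TPM or more with a drug, no overlap and no predicted model, the 3 members of smallest p in each of 48 lists, and a set of drug, neuron and glia genes. The text gives a part of these. Values were seen before Gm13340, Gm21104, Apod, Pi16, Igfbp6, Dpt, Kit, Cpa3, Fcer1a, Cma1, Dbp, Per2, Arntl, Npas2, Per3, Per1, Ifit2, Tap1, Prg2 and Mmp13 were chosen. The comparison and all lists were chosen with earlier results of these data known. The lists hold 1111 members, of which 1103 were found in the table and 1031 were tested.

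Alternatives were median-ratio scaling, no filter, a pseudocount of 0.1, the day 8 libraries alone, the libraries of the groups compared alone, library quality weights, protein-coding genes alone, and leaving out each library. The code was tested on simulated data. Promoter and miRNA sequences come from RefSeq on GRCm38.p6.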

Additional observations from a re-analysis of the deposited data

How the results depend on the processing

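Between cyclophosphamide and doxorubicin 0 genes were called. The count was 1 with a pseudocount of 0.1 (Mir8095), 1 with no filter (ENSMUSG00000121140) and 2 with library quality weights (Gm13340 and Mir8095). With 1 library left out it was 0 to 2, with 2 genes without cyclophosphamide replicate 2 and 1 gene without doxorubicin replicate 3. Genes at an unadjusted p under 0.05 numbered 1044, but 1839 with no filter and 1632 with library quality weights. In cyclophosphamide against saline, 2 genes were called, and the count was 1 with a pseudocount of 0.1, 5 with no filter, 0 with the libraries of the groups compared alone and 0 among protein-coding genes alone. With 1 library left out it was 0 to 4, where the omission of saline replicate 1 gave 0, as did that of cyclophosphamide replicate 1, and the omission of saline replicate 2 gave 4, as did that of saline replicate 3. In doxorubicin against saline 0 genes were called, but 2 with no filter and 0 to 4 with 1 library left out, with 1 gene without doxorubicin replicate 3 or saline replicate 1, 2 genes without saline replicate 2 and 4 genes without saline replicate 3. The cause of these shifts was not tested. No paired analysis was possible because the labels give no replicate numbers shared between groups.

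Some differences between the drugs turned sign. With median-ratio scaling they were 0.011 for Mdm2, 0.011 for Abcc1, 0 for Gstp1 and 0.012 for Trpv1. With library quality weights they were 0.006 for Mdm2, 0.056 for Aldh1a1, −0.035 for Piezo2, 0.063 for Mpo, 0.056 for Camp and 0.056 for Adgre1. With 1 library left out the ranges were −0.060 to 0.130 for Abcb1a, −0.068 to 0.023 for Abcc1, −2.529 to 0.169 for Acta1, −0.183 to 0.077 for Adgre1, −0.260 to 0.166 for Aldh1a1, −0.016 to 0.490 for Atf3, −0.592 to 0.074 for Camp, −0.145 to 0.048 for Cdkn1a, −0.058 to 0.429 for Elane, −0.157 to 0.064 for Fabp7, −1.237 to 0.027 for Gad1, −0.119 to 0.029 for Gstp1, −0.070 to 0.042 for Mdm2, −0.449 to 0.070 for Mpo, −0.111 to 0.095 for Piezo2, −0.143 to 0.031 for Rbfox3, −1.448 to 0.191 for Slc32a1 and −0.158 to 0.066 for Trpv1. Of 48 list medians, 12 turned sign under an alternative that keeps every library and 33 with 1 library left out, and 14 kept their sign throughout. The depth of the libraries is unknown. With 3 libraries per drug, differences smaller than the intervals given were not resolved. Larger ones did not pass adjustment in the main analysis either.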
